A study of Homo sapiens with 7 samples.

Results

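The promoters of 4 genes of the AP-2 transcription factor family, TFAP2A, TFAP2B, TFAP2C and TFAP2E, were followed through maps of chromatin contacts in 3 human cancer cell lines. A promoter was a window of 500 bp centred on any annotated start site of a gene, and a loop belonged to a gene when an anchor of the loop overlapped such a window. Of 354783 loops in all, 51 belonged to these genes, with 5 of the 163530 Ishikawa loops, 26 of the 42027 T-47D loops and 20 of the 149226 LNCaP loops. The contacts came from H3K27ac HiChIP, which joins and sequences DNA ends that lie close together on chromatin carrying acetylated lysine 27 of histone H3, a mark of active promoters and enhancers. The 7 samples comprised 4 of Ishikawa, an endometrial adenocarcinoma line, 1 of T-47D, a breast ductal carcinoma line, and 2 of LNCaP, a prostate carcinoma line. Ishikawa cells were given 10 nM estradiol (E2) for 1 h in 2 samples and DMSO, the vehicle, in the other 2, and the labels name no treatment for T-47D and LNCaP. Ishikawa chromatin was cut with DpnII and sheared with a probe sonicator, whereas T-47D and LNCaP chromatin was cut with MboI and sheared on a Covaris instrument, and sequencing followed the same split, so wherever Ishikawa is compared, cell line and protocol cannot be told apart. The deposited data hold 1 merged loop list per line, and no value below has a replicate error.

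AP-2 factors bind DNA as dimers at GC-rich sites and act in the development of the neural crest, skin, limbs, kidney and placenta. In luminal breast cells TFAP2A and TFAP2C are known as partners of the estrogen receptor and as regulators of ERBB2 and of ESR1 itself, whereas TFAP2B is best known from kidney and neural crest and TFAP2E from a restricted set of tissues including olfactory bulb. CITED proteins with EP300 and CREBBP serve AP-2 factors as coactivators, and KCTD1 and KCTD15 inhibit them.

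Sequences in front of some start sites that lay in loop anchors are shown because TFAP2A was contacted at different start sites in different lines. They were taken from RefSeq promoters (table build GRCh38.p14), where 3 of the 4 genes matched, and were placed on GRCh37 by an exact match. Other starts in anchors had no such match and are not shown. Among them are the TFAP2A start at 10404827, in an anchor in all 3 lists, and the TFAP2E start at 36043337, in an Ishikawa anchor. Each run gives the 250 bases before the start, on the strand of the gene. Capitals were reserved for the AP-2 letters GCCNNNGGC, which read the same on both strands, and none of these runs held them, against 19.8% of the 35116 promoters in the table.
TFAP2A outermost promoter, chr6:10419893-10420142, minus strand, inside a T-47D anchor: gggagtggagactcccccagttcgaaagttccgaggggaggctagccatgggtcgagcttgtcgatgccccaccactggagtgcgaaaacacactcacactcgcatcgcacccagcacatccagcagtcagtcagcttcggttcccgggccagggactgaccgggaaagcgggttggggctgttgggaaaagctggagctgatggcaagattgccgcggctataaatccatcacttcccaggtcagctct
TFAP2A middle promoter, chr6:10412625-10412874, minus strand, inside an LNCaP anchor: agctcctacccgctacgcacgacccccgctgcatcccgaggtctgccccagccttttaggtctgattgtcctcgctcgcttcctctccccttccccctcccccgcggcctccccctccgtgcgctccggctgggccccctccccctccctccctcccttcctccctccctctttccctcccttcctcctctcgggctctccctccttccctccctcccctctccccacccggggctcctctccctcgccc
TFAP2E main promoter, chr1:36038665-36038914, plus strand, inside a T-47D anchor: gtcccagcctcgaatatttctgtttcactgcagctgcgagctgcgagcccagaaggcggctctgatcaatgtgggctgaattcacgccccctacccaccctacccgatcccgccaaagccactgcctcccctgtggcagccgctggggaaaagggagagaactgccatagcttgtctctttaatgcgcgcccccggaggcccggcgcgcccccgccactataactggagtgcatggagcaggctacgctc
The G and C content was 59.6% in front of the outermost TFAP2A start, 71.2% in front of the start of the middle group (transcript TFAP2A-202, at 10412624) and 62.4% in front of the TFAP2E start, against a median of 58% over the promoters of the table. The middle TFAP2A run lies in an intron of the longest TFAP2A transcripts and reaches into the first exon of another. TFAP2C was not matched.

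T-47D had the largest share of its read pairs in TFAP2A and TFAP2C loops among the 3 lists, and TFAP2B had no loop in any. The TFAP2A promoters were in 1 Ishikawa loop (3 read pairs), 14 T-47D loops (131 read pairs) and 17 LNCaP loops (109 read pairs). Loops of all genes held 1040329 read pairs in the Ishikawa list, 351260 in the T-47D list and 1805322 in the LNCaP list, and the share of a gene is given as RPM, its read pairs per 1000000 read pairs in the list. TFAP2A had 2.88 RPM in the Ishikawa list (95% exact Poisson interval 0.595 to 8.43), 373 in that of T-47D (312 to 443) and 60.4 in that of LNCaP (49.6 to 72.8). Poisson intervals cover counting error only. TFAP2C had 2 Ishikawa loops (10 read pairs), 9 T-47D loops (77 read pairs) and 3 LNCaP loops (13 read pairs). The TFAP2C shares were 9.61 RPM for Ishikawa (4.61 to 17.7), 219 for T-47D (173 to 274) and 7.20 for LNCaP (3.83 to 12.3), so the Ishikawa and LNCaP intervals overlapped and the T-47D interval lay above both. TFAP2E had 2 Ishikawa loops (22 read pairs), 3 T-47D loops (15 read pairs) and no LNCaP loop. Its shares of 21.1 RPM for Ishikawa (13.3 to 32.0) and 42.7 for T-47D (23.9 to 70.4) had overlapping intervals. In bulk cells, more contacts per cell and contacts in more cells or on more gene copies cannot be told apart.

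**Figure D1:**
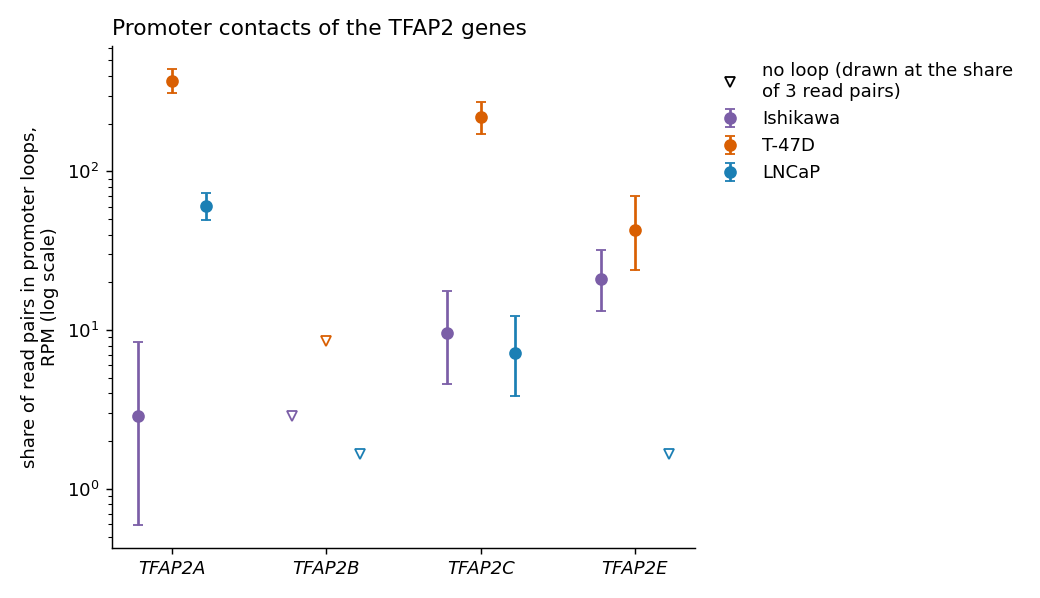
Share of read pairs in promoter loops in RPM (log scale) for each gene, with points for the 3 lists, 95% Poisson intervals as bars, and open triangles for a gene without a loop, drawn at the share of 3 read pairs. The T-47D points of TFAP2A (373 RPM) and TFAP2C (219) sit above those of the other lists, and TFAP2B has no loop in any list.

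Among 20163 protein-coding genes, 57.3% had 1 promoter loop or more in the Ishikawa list, 49.2% in that of T-47D and 58.1% in that of LNCaP. Of the 4 TFAP2 genes, 3 had a loop in Ishikawa (TFAP2A, TFAP2C and TFAP2E), the same 3 in T-47D, and 2 in LNCaP (TFAP2A and TFAP2C). By read pairs, TFAP2A stood at percentile 45.7 of all protein-coding genes for Ishikawa, 96.6 for T-47D and 78.6 for LNCaP. TFAP2C stood at percentile 58.8 for Ishikawa, 92.3 for T-47D and 49.7 for LNCaP. TFAP2E reached percentile 71.8 in Ishikawa and 69.2 in T-47D. Genes without a loop are in these percentiles. Among genes with a loop in the list, TFAP2A stood at percentile 5.17 for Ishikawa, 93.0 for T-47D and 63.1 for LNCaP. On that scale TFAP2C stood at 28.2 for Ishikawa, 84.4 for T-47D and 13.5 for LNCaP, and TFAP2E at 50.8 for Ishikawa and 37.4 for T-47D. The lists were also viewed at 5 marker genes per cell line, chosen with earlier results of these data known, so they are no independent check of the labels. The list of the line itself held the highest share for 4 of the Ishikawa markers, 5 of the LNCaP markers and 3 of the T-47D markers. Among the LNCaP markers, KLK2 and KLK3 had the same counts (61 loops, 2936 read pairs). The Ishikawa marker ESR1 had 555 RPM in T-47D against 287 in Ishikawa. The estrogen target TFF1, a T-47D marker, had no loop in T-47D and 58 read pairs in LNCaP, and the marker SPDEF had a higher share in LNCaP.

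Shares were compared between lists as a ratio, with at least 3 read pairs assumed in each list, and a gene was called when the ratio was 2 or more and the higher list held 10 read pairs or more. Between T-47D and LNCaP, 33.9% of the 11352 genes with enough read pairs were called higher in T-47D and 25.4% higher in LNCaP, with a median ratio of 1.22. TFAP2A, TFAP2C and TFAP2E were all called higher in T-47D. The TFAP2A share was 6.18 times higher in T-47D than in LNCaP (95% exact conditional interval 4.75 to 8.04), and 12.6% of the genes had a higher ratio. For TFAP2C the share was 30.4 times higher in T-47D (16.8 to 59.7), and 4.55% of the genes had a higher ratio. The LNCaP list held no very short or very long loops, unlike that of T-47D. With all lists held to spans of 5 kb to 2 Mb, the ratios were 6.38 for TFAP2A and 31.5 for TFAP2C. The TFAP2E ratio of T-47D over LNCaP was 25.7, where LNCaP had no loop and was set to 3 read pairs. This is a point value without an interval, not a lower bound. This TFAP2E call ended when promoter windows of 2000 bp were used, since an LNCaP anchor then counted and the ratio became 1.93.

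Against Ishikawa, 50.5% of 11730 genes were called higher in T-47D and 27.7% higher in Ishikawa, with a median ratio of 2.10. The TFAP2A share was 129 times higher in T-47D than in Ishikawa (43.3 to 635), an interval set by only 3 Ishikawa read pairs, and 1.65% of genes had a higher ratio. The Ishikawa list is made of 4 parts, and the minimum of 3 read pairs per loop held within each part, a stricter filter than in the other lists. Its effect on the ratios against Ishikawa was not tested. TFAP2C was 22.8 times higher in T-47D (11.8 to 49.4), and 16.0% of genes had a higher ratio. Taken over read pairs in promoter loops, the ratios fell to 66.2 for TFAP2A and 11.7 for TFAP2C. TFAP2E had a ratio of 2.02 with an interval of 0.974 to 4.07 that includes equal shares, although it passed the rule for a call. Between LNCaP and Ishikawa, 53.4% of 13421 genes were called higher in LNCaP and 30.3% higher in Ishikawa, with a median ratio of 2.45. TFAP2A was 20.9 times higher in LNCaP (6.98 to 103). The TFAP2E ratio of Ishikawa over LNCaP was 12.7 with LNCaP set to 3 read pairs, again without an interval. TFAP2C was not called with a ratio of 0.749 (0.303 to 1.91), which became 0.445, a call for Ishikawa, over read pairs in promoter loops and turned to 3.47 relative to other loops within 1 Mb. The TFAP2E call against LNCaP also ended with windows of 2000 bp, where LNCaP over Ishikawa was 1.05.

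The surroundings of the genes did not all move with the promoters. Other loops within 1 Mb of TFAP2A, those without a TFAP2A promoter, had a share in T-47D that was 0.324 times that in LNCaP and 0.464 times that in Ishikawa. The TFAP2A promoters were thus richer in T-47D contacts in a stretch that was poorer in them. Around TFAP2C, other loops had a share 8.53 times higher in T-47D than in LNCaP and 1.84 times higher than in Ishikawa. Relative to these other loops, a scale chosen after seeing the data, the TFAP2C promoter was 3.57 times higher in T-47D than in LNCaP and 12.4 times higher than in Ishikawa. On the same scale TFAP2A was 19.1 times higher in T-47D than in LNCaP. The part of the surroundings in these differences was not tested.

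TFAP2A lies on the minus strand of chromosome 6 (ENSG00000137203, chr6:10393419-10419892, GRCh37) and has 18 start sites in the annotation. The inner start at 10404827, that of transcript TFAP2A-204, lay in an anchor in all 3 lists, an anchor that also held the start of the antisense RNA TFAP2A-AS2. That anchor had 1 Ishikawa loop (3 read pairs), 5 T-47D loops (39 read pairs) and 12 LNCaP loops (92 read pairs). T-47D had a further anchor at 10417525 to 10421943, over 5 start sites that include the outermost start at 10419892, with 10 loops and 106 read pairs. LNCaP instead had a further anchor at 10411119 to 10414497, over 6 start sites from 10411175 to 10413112, with 6 loops and 50 read pairs. These anchors did not overlap and lay 3.03 kb apart, so that beside the inner start the outermost group was contacted in T-47D and a middle group in LNCaP. With the outermost start as the only promoter, TFAP2A kept 106 read pairs in T-47D and had none in LNCaP or Ishikawa. No start of the other antisense RNA, TFAP2A-AS1, lay in an anchor.

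**Figure D2:**
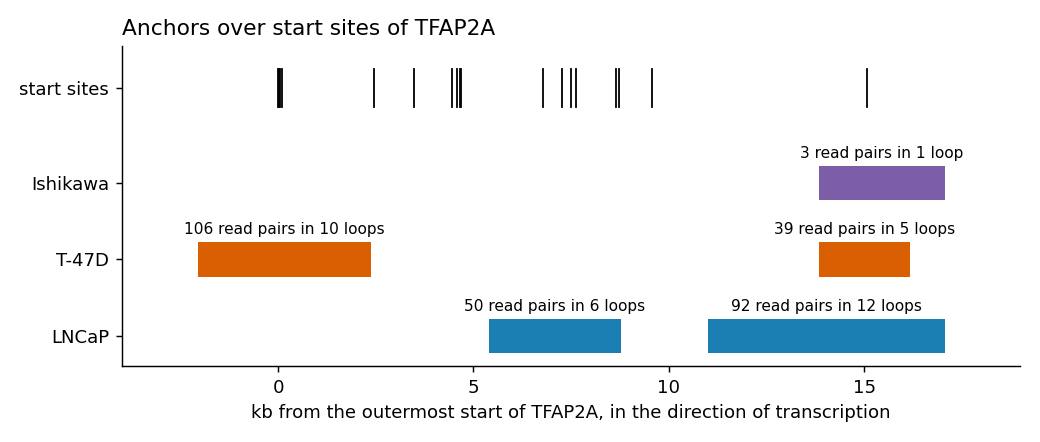
Start sites of TFAP2A (black ticks) and the loop anchors over them (bars) by list, in kb from the outermost start in the direction of transcription, with the loops and read pairs of each anchor. The anchor at the outermost starts was in the T-47D list (106 read pairs), the middle anchor in the LNCaP list (50 read pairs), and the inner one in all lists.

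The strongest TFAP2A loop of T-47D held 41 read pairs and joined the outermost promoter to chr6:10425928-10432172, centred 9.32 kb upstream. That region held promoters of unnamed long noncoding RNAs and an exon of LINC00518, and TFAP2A loops made up 83.1% of its read pairs. The inner anchor was joined to the same region by 8 read pairs. Next came a loop of 14 read pairs from the outermost promoter to chr6:10381179-10385582, an intergenic region downstream of the gene, which the inner anchor reached with 11. A loop of 14 read pairs joined the outermost and inner anchors to each other over 14.8 kb. The last of the 5 strongest, with 11 read pairs, reached an intergenic region at chr6:10162870-10165532, 256 kb downstream. The weakest loops had 3 read pairs, and 1 of these, chosen after its values were seen, spanned 1984 kb to the promoters of SLC35B3 and of the long noncoding RNA HULC.

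In LNCaP the strongest TFAP2A loop was within the gene, with 33 read pairs between the inner and the middle anchors, 6.95 kb apart. The nearest other LNCaP partner was 91.2 kb away. The inner anchor had 12 read pairs with chr6:10139668-10142842, 265 kb downstream, and 7 with chr6:10167925-10170620, 237 kb downstream. Loops of 6 read pairs led to chr6:9461806-9470041, 940 kb downstream, to chr6:10309703-10312463, 94.8 kb downstream, and to chr6:10689108-10703102, 290 kb upstream. The last region held the promoters of C6orf52 and of PAK1IP1, a negative regulator of the kinase PAK1, and was a busy anchor in which TFAP2A took 1.38% of 435 read pairs. Of the read pairs that left the gene, 85.5% in LNCaP and 36.8% in T-47D went to anchors more than 100 kb away, and 88.2% and 58.1% went downstream. The T-47D share of read pairs includes the single loop of 41 read pairs at 9.32 kb. Counted by loops the lists were closer, with 14 of 17 TFAP2A loops in LNCaP and 9 of 14 in T-47D spanning more than 100 kb. The median distance of TFAP2A loops was 244 kb in LNCaP and 232 kb in T-47D. The median span of promoter loops over all genes was 122 kb in LNCaP, 90.9 kb in T-47D and 43.6 kb in Ishikawa. The longest loop of any kind was 1999.13 kb in LNCaP, 191003 kb in T-47D and 218023 kb in Ishikawa, so the lists were not bounded alike. The single Ishikawa loop, with 3 read pairs, joined the inner anchor to an intergenic region at chr6:10334102-10345478, 64.6 kb downstream.

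**Figure D3:**
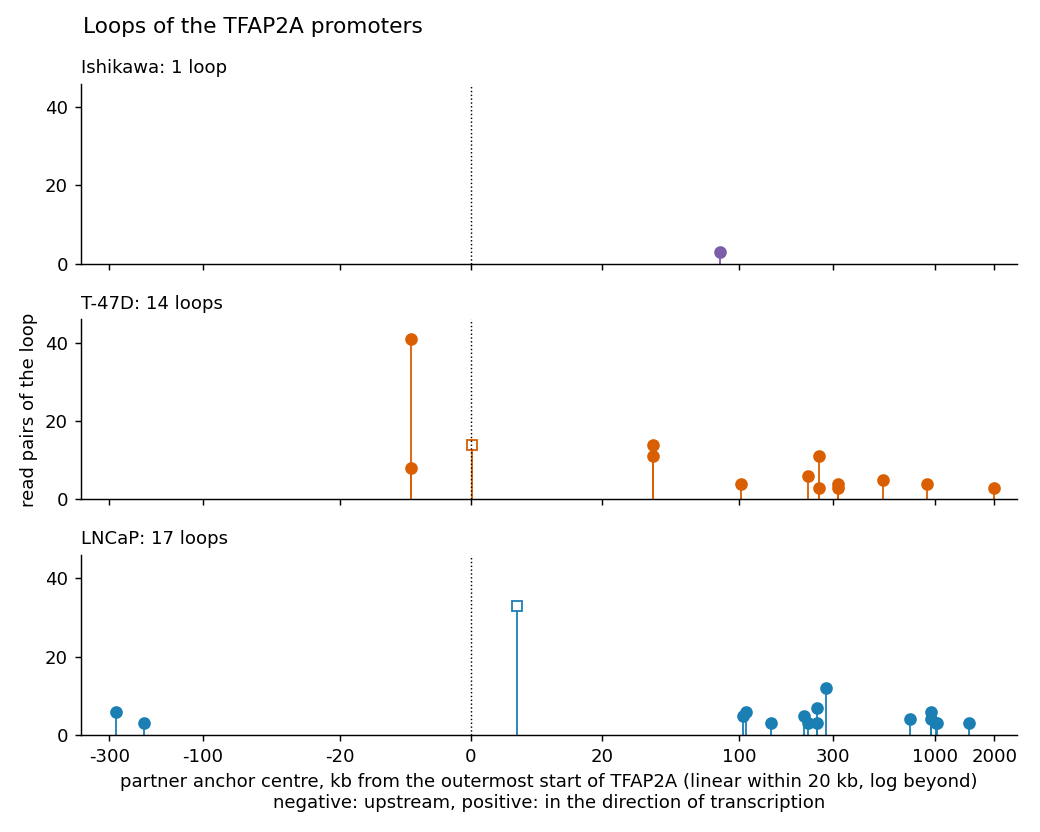
Read pairs of each TFAP2A loop against the centre of its partner anchor, in kb from the outermost start (linear within 20 kb, log beyond), for each list, with open squares for the loop between anchors of the gene itself. The tallest T-47D loop (41 read pairs) ends just upstream of the gene, and the tallest LNCaP loop (33 read pairs) stays inside it.

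Few partner regions of TFAP2A recurred between lists. The share that recurs for the partners of other genes was not computed, so this is not known to be particular to TFAP2A. Of 9 T-47D partners and 14 LNCaP partners, 1 pair overlapped, 11.1% of the T-47D regions and 7.14% of the LNCaP regions. The pair was chr6:10194367-10197454 in T-47D, with 6 read pairs, and chr6:10192802-10194896 in LNCaP, with 3, and these overlapped only at their edges. No pair overlapped by 50% of both anchors, and 2 pairs had centres within 5 kb. An LNCaP anchor of any kind overlapped 3 of the 9 T-47D partners, and a T-47D anchor overlapped 2 of the 14 LNCaP partners. Most partner regions of a line were thus no anchor in the other, where the LNCaP list held 43549 anchors in all and the T-47D list 19386. The Ishikawa partner was not shared with either list. Among the T-47D partners, 12 of 36 possible pairs were themselves joined by loops, with 99 read pairs, and among the LNCaP partners 8 of 91, with 101. Such shares were not computed for other genes.

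TFAP2C lies on the plus strand of chromosome 20 (ENSG00000087510, chr20:55204362-55214339) with 2 start sites, both in a single anchor in every list. The anchor had the same edges in T-47D and LNCaP, chr20:55202244-55206890, and was chr20:55198931-55206262 in Ishikawa, where it also held the start of an unnamed long noncoding RNA. In T-47D all 9 partners lay downstream of the gene, in the intergenic stretch between TFAP2C and BMP7, at 60.4 to 366 kb. The strongest loops led to chr20:55361533-55366968 with 16 read pairs at 160 kb, to chr20:55382275-55386639 with 12 at 180 kb, and to chr20:55333086-55335470 with 10 at 130 kb. Loops of 9 read pairs reached chr20:55263679-55266287 and chr20:55285619-55287969, at 60.4 and 82.2 kb. The other 4 loops held 7 read pairs at 246 kb (chr20:55449295-55451162), 7 at 345 kb (chr20:55548791-55551226), 4 at 366 kb (chr20:55570049-55571699) and 3 at 122 kb (chr20:55324855-55328598). No loop took more than 20.8% of the TFAP2C read pairs, whereas the strongest TFAP2A loop in T-47D took 31.3%.

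Many T-47D partners of TFAP2C, all picked as partners of the same anchor, were also joined to each other. Of the 36 possible pairs among the 9 regions, 21 (58.3%) were joined by loops of their own, with 152 read pairs and up to 26 in a single loop. In T-47D this share was 33.3% for TFAP2A (12 of 36 pairs) and 66.7% for TFAP2E (2 of 3). It was not computed for genes outside the family. For 7 of the 9 TFAP2C regions the nearest protein-coding start was that of TFAP2C. For the other 2 it was that of BMP7, a secreted growth factor of the bone morphogenetic protein family. The anchor over the promoters of AURKA, a mitotic kinase, and CSTF1, a subunit of the complex that cleaves pre-mRNA 3′ ends, was joined to 3 of the 9 regions, and no other protein-coding promoter was. None of the 9 regions overlapped an anchor of any loop in the LNCaP or the Ishikawa list, a share that was not computed for the partners of other genes.

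In LNCaP, by contrast, all 3 TFAP2C partners lay upstream. A loop of 5 read pairs over 237 kb joined the gene to the shared promoter anchor of AURKA and CSTF1 at chr20:54965601-54970158, another of 5 led to an intergenic region 24.6 kb upstream at chr20:55178799-55181074, and 3 read pairs joined an exon of FAM209B at chr20:55111441-55113832, 91.9 kb upstream. In Ishikawa, 7 read pairs led to an intergenic region at chr20:55219650-55231718, 23.1 kb downstream, and 3 to a long noncoding RNA promoter at chr20:55124617-55128426, 76.1 kb upstream. The Ishikawa list is made of 4 separately sorted parts that no source ties to samples. The 7 read pairs came as 3 and 4 from different parts, and the loops of 3 read pairs of TFAP2C and TFAP2A came from 1 part each. TFAP2C shared no partner region between any lists, also with centres within 5 kb, and no such share over all genes was computed.

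**Figure D4:**
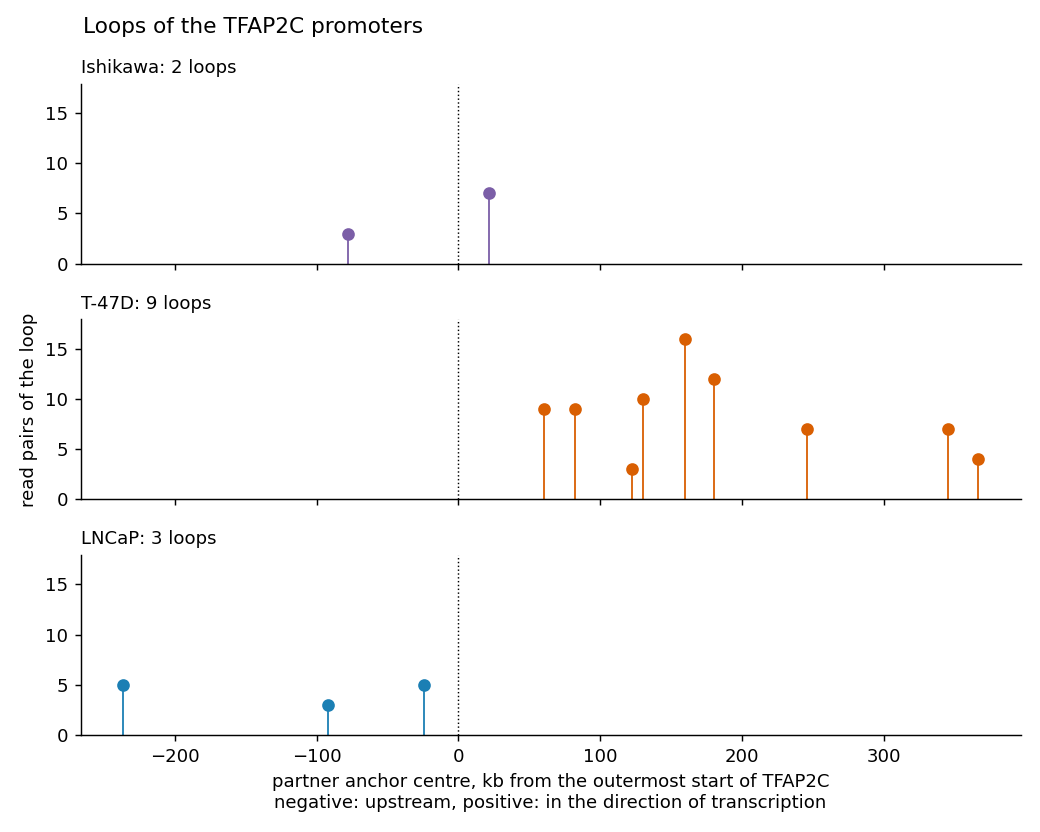
Read pairs of each TFAP2C loop against the centre of its partner anchor, in kb from the outermost start, for each list. All 9 T-47D loops run downstream, between 60.4 and 366 kb, and all 3 LNCaP loops run upstream.

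The TFAP2C start window held a full estrogen response element, GGTCA followed by TGACC with 3 bases between, which reads the same on both strands. The letters lay at chr20:55204510-55204522, 148 bases after the start, in exon 1 and within the 5′ untranslated part of transcript TFAP2C-201. The element is shown in capitals because these letters were in 76 of 146295 start site windows of protein-coding genes (0.0519%) and in no other window of the TFAP2 genes.
TFAP2C estrogen response element, plus strand: agacgcctGGTCAccgTGACCccgatttt
The anchor over it was the promoter anchor of TFAP2C in all 3 lists, so the letters were present where TFAP2C contacts were many and where they were few. No partner anchor of any TFAP2 gene held them. A match is a description of the reference sequence and not a measured binding site.

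The AP-2 letters GCCNNNGGC were in 34.1% of all start site windows, in 5 of the 18 TFAP2A windows, in 1 of the 2 TFAP2C windows, and in none of the 3 TFAP2B and 5 TFAP2E windows. The matches that lay inside promoter anchors are shown on the strand of the gene with the letters in capitals, to set those of the T-47D anchor beside those of the LNCaP anchor.
TFAP2A, T-47D anchor, chr6:10417575-10417583: cctcaatggcGCCCTCGGCgggaatacaa
TFAP2A, T-47D anchor, chr6:10419551-10419559: aagcgccgtgGCCCAGGGCaggggagtcg
TFAP2A, LNCaP anchor, chr6:10412940-10412948: aagcggcggaGCCCGCGGCcagacagggc
TFAP2A, LNCaP anchor, chr6:10413128-10413136: gccccagagaGCCGAGGGCagagcgacgg
TFAP2A, LNCaP anchor, chr6:10413217-10413225: gcgagccggtGCCAGCGGCgcccgggctg
TFAP2C, anchor of all 3 lists, chr20:55205155-55205163: tggtgggggtGCCCGAGGCcagatggggc
The match at 10413128 was centred 20 bases before the start of transcript TFAP2A-207, and that of TFAP2C was 131 bases before its inner start. Over whole promoter anchors, the AP-2 letters occurred 19 times in T-47D, 14 in LNCaP and 14 in Ishikawa, where anchors of like length in the same list would hold 8.34, 4.63 and 3.91 on average. All such expected numbers, here and below, matched anchors by length only, not by G and C content or by the presence of a promoter. They therefore cannot show an excess beyond base composition. The TFAP2C anchor of T-47D alone held 8, against a mean of 2.93. Partner anchors held 35 matches in T-47D against 38.1 expected from anchors of like length, 11 in LNCaP against 20.5 and 9 in Ishikawa against 8.29. Among promoter anchors, that of TFAP2C held 11 of the 14 Ishikawa matches, 8 of the 14 LNCaP matches and 8 of the 19 T-47D matches, while the inner TFAP2A anchor held 1 match in each list against means of 1.46 for Ishikawa, 1.34 for T-47D and 2.05 for LNCaP. With 4 bases between GCC and GGC in place of 3, promoter anchors held 18, 16 and 17 matches against 7.20, 3.93 and 3.35. The forkhead letters TGTTTAC, searched on both strands, were in 4.61% of start windows and in none of the TFAP2 windows, and occurred 24 times in LNCaP partner anchors against 13.4 expected, 6 times in those of T-47D against 9.41 and 7 times in those of Ishikawa against 6.26. In promoter anchors they occurred 5 times in LNCaP against 2.69, 2 times in T-47D against 2.09 and 7 times in Ishikawa against 2.33.

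TFAP2E lies on the plus strand of chromosome 1 (ENSG00000116819, chr1:36038915-36060929) and was contacted at different starts in different lines. In T-47D the anchor at chr1:36037691-36040023 covered the main start and a start of the antisense RNA TFAP2E-AS1, and its 3 loops all ended at promoters of other genes. These were the anchor of KIAA0319L and NCDN (neurochondrin) at chr1:36021670-36025538 with 6 read pairs over 15.3 kb, that of C1orf216 at chr1:36183331-36185960 with 5 over 146 kb, and that of the proteasome subunit gene PSMB2 at chr1:36105785-36108213 with 4 over 68.1 kb. In Ishikawa the anchor at chr1:36041483-36046139 covered the start of transcript TFAP2E-202 and another start of TFAP2E-AS1. Of its 2 loops, with 11 read pairs each, 1 ended in an intron of TFAP2E at chr1:36047720-36053018 and was seen in 2 parts of the list, and 1 ended at the C1orf216 promoter at chr1:36179095-36185962 and was seen in 3 parts. C1orf216 was the partner that both lists had in common, 1 of 3 in T-47D and 1 of 2 in Ishikawa, and this overlap was lost when 50% of both anchors was required. In LNCaP an anchor at chr1:36039461-36042047 began 546 bp past the main start, outside the promoter window of TFAP2E but over that of the TFAP2E-AS1 start of the T-47D anchor, with 5 loops and 40 read pairs to anchors over the promoters of AGO4, C1orf216, KIAA0319L, NCDN and PSMB2. The lack of a TFAP2E loop in LNCaP thus rested on the width of the window. Other loops within 1 Mb had a T-47D share that was 0.283 times the LNCaP share.

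TFAP2B (ENSG00000008196, chr6:50786436-50815332, plus strand) had no promoter loop in any list. Since the lists keep only loops of 3 read pairs or more, weaker contacts cannot be seen, and a single loop of 3 read pairs would be 2.88 RPM for Ishikawa, 8.54 for T-47D and 1.66 for LNCaP. In Ishikawa the minimum held within each of the 4 parts, so read pairs spread thinly over parts cannot be seen either. The nearest anchor was 89.7 kb from a start in Ishikawa and 948 kb away in T-47D. In LNCaP it was 1.91 kb away, with 1 loop of 3 read pairs. Within 1 Mb the T-47D list held 1 loop with 4 read pairs, against 34 loops in Ishikawa and 19 in LNCaP. TFAP2D, the remaining paralog, also had no promoter loop in any list.

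A number of loops depends on depth, and the T-47D list held the fewest read pairs in loops. If the read pairs in loops of each list were thinned to the 351260 of T-47D, a loop count of 2.02 would be expected for TFAP2A in LNCaP in place of 17. Over all 4 genes it would be 2.13 in place of 20. Read pairs in loops also depend on how loops were called, so this step does not thin by sequencing depth. The same step gives 2.07 in Ishikawa in place of 5, beside 26 in T-47D. Taking only the 42027 strongest loops of each list left 2 TFAP2 loops in LNCaP and 2 in Ishikawa. The near equal loop numbers of TFAP2A in T-47D and LNCaP were therefore not at equal totals of read pairs in loops.

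The genes nearest to TFAP2A and TFAP2C in their pattern over the 3 lists were sought on other chromosomes, by the distance of log2(RPM + 10), with 3 values per gene. For TFAP2A these were SMCR8 (distance 0.250), MAPK11 (0.344) and SWI5 (0.346), with T-47D read pairs of 112, 104 and 147, LNCaP read pairs of 99, 114 and 101, and Ishikawa read pairs of 3, 4 and 6. For TFAP2C they were ASPM (0.285), CDKN3 (0.287) and SETD9 (0.414), with T-47D read pairs of 71, 64 and 65, LNCaP read pairs of 18, 16 and 16, and Ishikawa read pairs of 8, 10 and 6. This describes likeness of numbers only.

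A promoter loop was found for 20 of 26 other genes tied to AP-2 factors in Ishikawa, for 19 in T-47D and for 18 in LNCaP. Between T-47D and LNCaP, 18 had enough read pairs, of which 10 were called higher in T-47D and 3 higher in LNCaP (33.9% and 25.4% of all genes tested), with a median ratio of 2.72 beside 1.22 over all genes. Against Ishikawa, 9 of 21 were called higher in T-47D and 5 higher in Ishikawa (50.5% and 27.7% of all genes), with a median of 1.93 beside 2.10. Between LNCaP and Ishikawa, 7 of 19 were called higher in LNCaP and 9 higher in Ishikawa (53.4% and 30.3% of all genes), with a median of 0.548 beside 2.45. Of the 11 known targets with enough read pairs, 8 were called higher in T-47D than in LNCaP and 2 higher in LNCaP, beside the same 33.9% and 25.4% of all genes, and targets were not tested against the other genes of the list. The highest share belonged to ERBB2, the receptor tyrosine kinase gene, in T-47D (392 read pairs, 1116 RPM), to CDH1, which encodes E-cadherin, in LNCaP (1055 read pairs, 584 RPM), and to the keratin gene KRT8 in Ishikawa (656 read pairs, 631 RPM). ERBB2 also had 857 LNCaP and 117 Ishikawa read pairs, and CDH1 had 8 T-47D and 22 Ishikawa read pairs.

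The following genes of that list were picked after their values were seen. The estrogen receptor gene ESR1 had shares of 555 RPM for T-47D, 287 for Ishikawa and 4.43 for LNCaP. MUC1, which encodes a cell surface mucin, had 176 T-47D read pairs, 19 LNCaP read pairs and 3 Ishikawa read pairs. IGFBP5, which encodes a binding protein of insulin-like growth factors, had 95 T-47D and 3 Ishikawa read pairs and no LNCaP loop. ESR1, MUC1 and IGFBP5 were called higher in T-47D than in LNCaP, as TFAP2A and TFAP2C were. Other targets with enough read pairs were not: CDH1 and KRT18 were called higher in LNCaP, and CDKN1A was not called. Among the regulators, the AP-2 inhibitor KCTD15 had 98 read pairs in T-47D, 55 in LNCaP and none in Ishikawa, an order by share that TFAP2A had too, whereas its relative KCTD1 had 76, 240 and 227 in T-47D, LNCaP and Ishikawa and was not called in any comparison. The coactivator gene CREBBP had 130 Ishikawa, 38 LNCaP and 3 T-47D read pairs, and EP300 had 55, 92 and 9. Coactivators as a group had 1 call in each direction between T-47D and LNCaP.

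**Figure D5:**
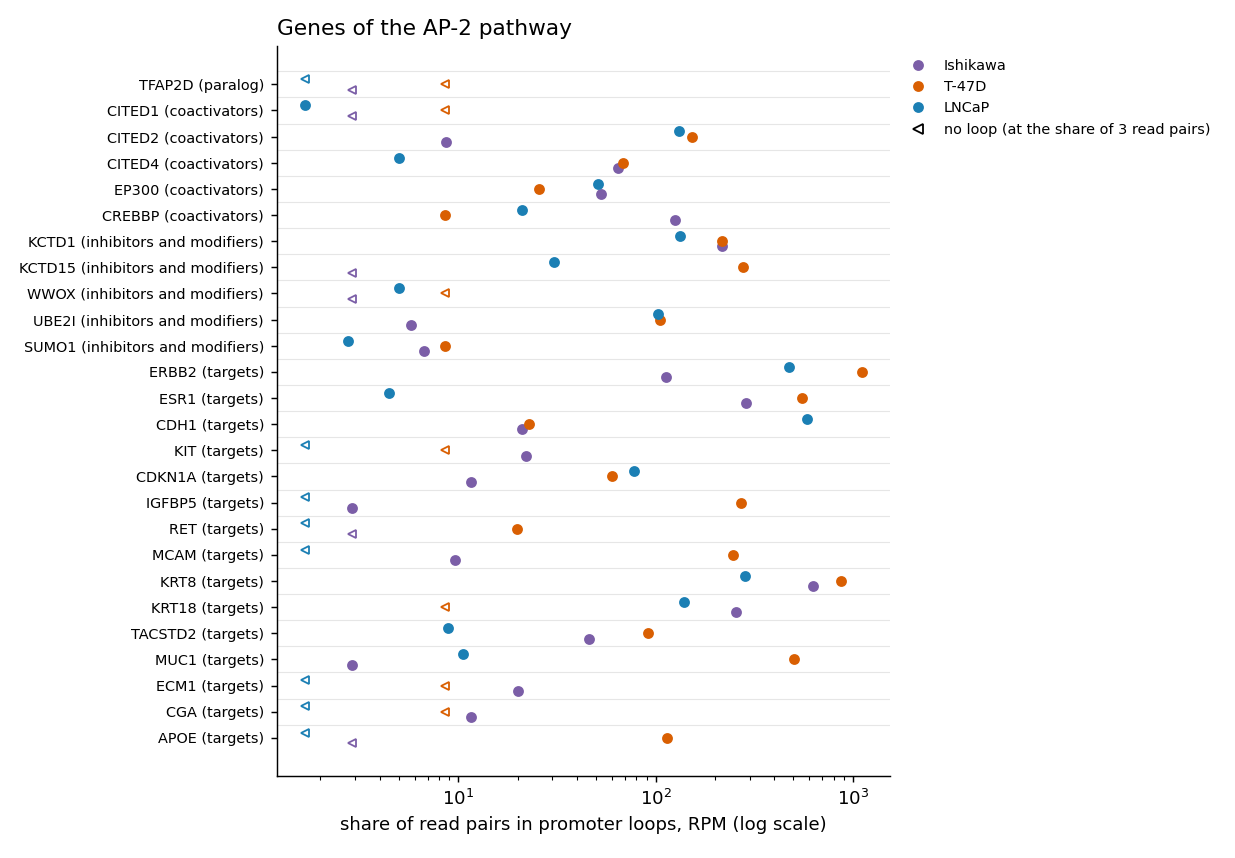
Share of read pairs in promoter loops in RPM (log scale) for the 26 other genes tied to AP-2 factors, with 1 point per list and open triangles for a gene without a loop, drawn at the share of 3 read pairs. T-47D lies farthest right for targets such as ERBB2 and MUC1, LNCaP for CDH1, and Ishikawa for the coactivator gene CREBBP.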

How the data were processed

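H3K27ac HiChIP of 7 samples was analysed. The authors aligned reads to hg19 with HiC-Pro, called loops with hichipper, removed loops with fewer than 3 reads or a high false discovery rate, and combined samples and treatments into 1 list per line. The deposited value of a loop is a count of read pairs, not scaled for depth. The Ishikawa list holds 4 parts that cannot be assigned to samples, so DMSO and E2 were not compared, and its counts were summed over parts. Each Ishikawa part kept only loops of 3 read pairs or more. Anchors joined to themselves and pairs across chromosomes were left out, and the LNCaP list holds neither. LNCaP loops also spanned only 5 to 1999.13 kb, against 1.82 to 191003 kb in T-47D and 2.87 to 218023 kb in Ishikawa. The LNCaP list was thus not bounded like the others. Start sites came from GENCODE v44 lifted to GRCh37, and all anchor edges of TFAP2 loops (16 in Ishikawa, 50 in T-47D, 40 in LNCaP) lay within 4 bases of GATC, the sequence cut by DpnII and MboI. With 1 list per line no test between conditions was made. Intervals are 95% exact Poisson or conditional binomial intervals and cover counting error only, since there is 1 list per line and no replicate. They also take read pairs as independent, which copies made by PCR would not be. Distances run between anchor centres. The genes, pathway list and markers were chosen with earlier results of these data known. Named loops were all loops of a gene with 10 or fewer in a list and otherwise its 5 strongest (with ties). Scripts used python 3.11.15, pandas 2.3.3, numpy 2.4.6 and scipy 1.17.1 and were tested on simulated data. The alternatives tried were minima of 5 and 10 read pairs, windows of 2000 bp, 1 start site per gene, spans of 5 kb to 2 Mb, Ishikawa loops in 2 or more parts, thinning, equal numbers of loops, other denominators, other overlap rules and another spacing of the AP-2 letters.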

Additional observations from a re-analysis of the deposited data

Results flagged for a closer look

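Rows that joined a promoter anchor of a TFAP2 gene to itself were in no comparison above, and they held read pairs in both lists that keep such rows. In T-47D they held 54 read pairs for TFAP2A, 43 for TFAP2C and 12 for TFAP2E. In Ishikawa they held 3 for TFAP2C and 4 for TFAP2E, and none for TFAP2A. The order of the genes in T-47D was the same as by promoter loops. The rows were summed over the anchors of a gene, and TFAP2A had 2 promoter anchors in T-47D against 1 each for TFAP2C and TFAP2E. These rows come from the same libraries as the loops and grow with the width of an anchor, and the LNCaP list has none, so T-47D and LNCaP could not be compared on them.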

How the results depend on the processing

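The calls of TFAP2A and TFAP2C between T-47D and either other list kept their direction and side of the threshold under every alternative that gave a value, with TFAP2A ratios of 5.32 to 182 over LNCaP and TFAP2C ratios of 3.57 to 82.6, the highest of which set LNCaP to 3 read pairs. TFAP2E was less stable. Over LNCaP its T-47D ratio became 1.93 with windows of 2000 bp, and LNCaP over Ishikawa turned to 1.05. T-47D over Ishikawa became 1.28 with a minimum of 5 read pairs, 0.317 with a minimum of 10, 1.29 with Ishikawa loops in 2 or more parts and 1.03 over promoter loops as denominator. TFAP2C in LNCaP over Ishikawa was 0.445 over promoter loops, past the threshold, and 3.47 relative to other loops within 1 Mb. TFAP2 loop totals in Ishikawa, T-47D and LNCaP were 3, 17 and 10 at a minimum of 5 read pairs and 2, 8 and 2 at 10. With 1 start site per gene the totals were 2 in Ishikawa and 3 in LNCaP, and Ishikawa had 3 with loops in 2 or more parts. Equal numbers of loops left 2 and 2, and thinning 2.07 and 2.13, in Ishikawa and LNCaP. Shared TFAP2A partners of T-47D and LNCaP numbered 0 at 50% overlap and 2 by centres, and those of TFAP2E in T-47D and Ishikawa 0 at 50%. The causes were not tested. At a minimum of 10 read pairs TFAP2E in T-47D over LNCaP and TFAP2C in LNCaP over Ishikawa gave no value, nor did TFAP2A and TFAP2E in LNCaP over Ishikawa with 1 start site. No paired analysis was possible because each line is a single merged list. The 1 T-47D sample sets the number of read pairs in loops used for thinning, and a loop at 3 read pairs may fall on either side of the filter by counting error alone.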
